A study of Saccharomyces cerevisiae with 6 samples.

Results

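The mating and pheromone response genes of the budding yeast Saccharomyces cerevisiae are described here in H4R45H cells, in which arginine 45 of histone H4 is replaced by histidine, and in the wild-type strain WY139. They are 44 genes chosen by symbol, and all 44 were measured, among 5449 genes in all. Arrays read a transcript through a group of probes called a probe set. A gene with several was read from its brightest one on the log2 scale, and PRM7 was the only such member. RNA was measured on one-colour Affymetrix arrays, 3 for H4R45H cells and 3 for wild-type WY139 cells. Cells of both strains grew in YPD, a rich medium, to mid-log phase. The labels give no mating type, no genotype beyond histone H4, and no pheromone treatment for either strain. The study asked how the changed residue in the core of H4 affects the expression profile.

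Haploid yeast cells are of mating type a or alpha. An a cell secretes a-factor and carries the receptor for alpha-factor, and an alpha cell does the reverse. Binding of the partner's pheromone frees the G protein beta-gamma dimer, which starts a kinase cascade that ends at the transcription factor Ste12. Ste12 turns on genes for cell adhesion, cell fusion and nuclear fusion. In a cells the alpha-specific genes are not activated, because their activator, the alpha1 protein, comes from the alpha mating-type locus.

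By mean signal over the 6 arrays of both strains, the marker genes had the pattern of a cells. Of the 7 a-specific genes, 6 lay above the lowest 25% of probe sets by mean signal (a signal of 78.3). Of the 4 alpha-specific genes, 3 lay in the lowest 10% (a signal of 36.5), and SAG1 lay above the lowest 25%. On the H4R45H arrays alone STE3 read 54.9 to 56.1, above that 10% limit, against 17.3 to 21.7 in wild type. MF(ALPHA)1 and MF(ALPHA)2 lay below that limit on every array. The probe set for HMLALPHA1, whose sequence the alpha mating-type locus shares, is not specific to 1 transcript. It read 1.8, 1.9 and 0.60 in H4R45H, against 1.3, 1.2 and 0.60 in wild type, which is next to no signal in either strain. The haploid marker genes GPA1, STE4, STE18, STE5, FUS3, FAR1, AXL1 and RME1 all lay above the lowest 25%. Below, a gene in the lowest 10% is called near the signal floor and a gene between the 10% and 25% limits is called dim. Signals of different probe sets depend on their probes, so ranks against these limits are a rough guide. Beyond them, levels are not compared between genes.

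Mean signal per array was 277 to 287, and log2 signals correlated at 0.9902 to 0.9945 across probe sets within a strain and at 0.935 to 0.958 between strains. The probe set for histone H4 (HHF1), which is not specific to 1 transcript, read 1104 to 1282 in H4R45H and 1169 to 1230 in wild type, and a point mutation leaves its target in place, so it does not check the labels. With 3 arrays a strain, their number limits the precision. The labels do not tell whether those 3 came from separate cultures, so a p-value here measures array-to-array spread alone, and that may be technical.

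The alpha-specific genes and most genes listed here as pheromone-induced were higher in H4R45H, while the a-specific and signalling genes moved in both directions. A gene was listed under 1 role only, and the lists were made with earlier results of these data known. Some genes under other roles are induced by pheromone too, such as SST2, which did not pass (log2 difference 0.04). The statement on pheromone-induced genes therefore holds for that list alone. By limma's test over all probe sets with Benjamini-Hochberg adjustment, 23 of the 44 genes were higher in H4R45H and 6 lower at an adjusted p under 0.05, and 15 did not pass. Over all genes 37.1% were higher and 29.1% lower. With a minimum of 2-fold as well, 6 of the 44 were higher (STE3, SAG1, AGA1, FIG1, PRM2 and PRM3) and 0 lower, where 8.88% of all genes were higher and 0.385% lower. That count depends on the scale. After quantile normalization SAG1 and PRM2 alone of the 44 passed the 2-fold minimum (log2 differences 1.26 and 1.67), and with 50 added to every signal SAG1 alone did (1.03). For 31 of the 44 the H4R45H and wild-type values did not overlap, as for 71.5% of all genes. The median log2 difference was 0.24 over the 44 genes and 0.05 over all genes.

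Brightness moves with these differences. Of all genes near the signal floor 64% were higher in H4R45H, and all 8 members there were higher (ASG7, STE3, MF(ALPHA)1, MF(ALPHA)2, FIG1, PRM1, PRM2 and PRM6). Of all genes in the lowest 25%, floor included, 59.5% were higher, and 12 of 16 members were. Above that limit 29.9% of all genes were higher and 36% lower, and of 28 members 11 were higher and 6 lower. With all genes split by signal into 10 equal bins, the dimmest bin had a median log2 difference of 0.71 and the brightest -0.18. Scaling moves it too. Quantile normalization, which gives every array the same distribution of signals, took the median of all genes from 0.05 to -0.07 and that of the 44 genes to -0.04. On all 4 scalings tried (the deposited one, quantile, median centring, cyclic loess), 13 members were higher and 5 lower, where 22.9% of all genes were higher and 22.3% lower. How much of each dim gene's difference comes from brightness was not tested. For many genes the median of the gene's own bin is given beside its difference.

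**Figure D1:**
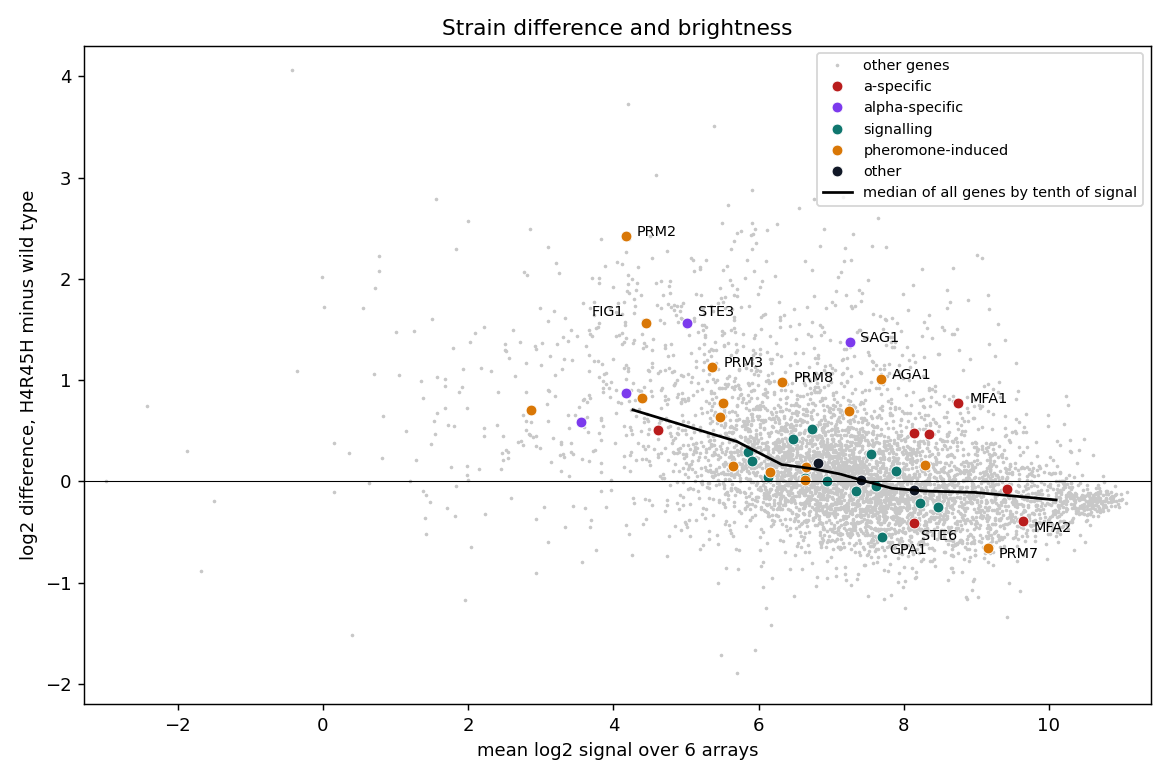
Log2 difference between H4R45H and wild type against mean log2 signal over the 6 arrays, for the 44 mating genes (coloured by role) and all other genes (grey), with the median of all genes in each of 10 signal bins as a black line. PRM2, FIG1, STE3, SAG1 and AGA1 lie above the line by 0.86 to 1.72, and GPA1, STE6 and PRM7 lie below it.

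The a-specific genes, expressed in a cells alone, split. Of 7 genes 4 were higher (MFA1, BAR1, AGA2 and ASG7), 2 were lower (MFA2 and STE6) and 1, STE2, did not pass. That is 57.1% higher and 28.6% lower, beside 37.1% and 29.1% of all genes. Their median log2 difference was 0.47. The largest difference was that of MFA1 (YDR461W), which encodes a precursor of a-factor. It read 543, 539 and 616 in H4R45H, against 316, 335 and 339 in wild type. Every H4R45H array was above every wild-type array, with a mean of 566 ± 43.5 in H4R45H and 330.2 ± 12.4 in wild type (SD, n = 3 each), a 1.71-fold difference (log2 difference 0.78, SE 0.065, limma adjusted p = 3.4e-06).

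MFA2 (YNL145W), the other a-factor precursor gene, went the other way. Its signal was 681, 678 and 734 in H4R45H, against 915, 878 and 947 in wild type. The strains did not overlap, and MFA2 fell by 0.39 on the log2 scale (SE 0.052, limma adjusted p = 8.9e-05). Genes of the same brightness had a median of -0.18. The log2 ratio of MFA1 to MFA2 within an array, which no scaling by a constant can move, was greater by 1.16 in H4R45H. Without a fit across genes, 3 arrays against 3 cannot give a two-sided exact permutation p under 0.10. This ratio had that p (0.13 when adjusted over 4 gene pairs). The pairs were chosen after their values were seen, and the adjustment does not correct for that choice.

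STE6 (YKL209C), the transporter that exports a-factor, read 239, 258 and 239 in H4R45H, against 328, 327 and 325 in wild type. All 3 H4R45H arrays were lower, a fall of 0.41 on the log2 scale (SE 0.057, limma adjusted p = 1.1e-04). BAR1 (YIL015W), a secreted protease that degrades alpha-factor, read 380.2, 367 and 406 in H4R45H, against 288, 276 and 269 in wild type. BAR1 was thus 1.39-fold higher with no overlap (SE of the log2 difference 0.061, limma adjusted p = 6.9e-05). STE2 (YFL026W), the alpha-factor receptor, read 674, 642 and 699.9 in H4R45H, against 707, 706 and 714 in wild type. The H4R45H arrays were all lower, but the difference did not pass (log2 difference -0.08, 95% interval -0.19 to 0.03, limma adjusted p = 0.18). After median centring STE2 was called lower (log2 difference -0.18, adjusted p = 0.012).

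AGA2 (YGL032C), the binding subunit of a-agglutinin, with which a cells adhere to partners, read 342, 336 and 319.6 in H4R45H, against 239.7, 238 and 240.4 in wild type. It was 1.39-fold higher with no overlap (log2 difference 0.47, SE 0.056, limma adjusted p = 3.6e-05). ASG7 (YJL170C), which acts on the G protein beta subunit after mating, lay near the signal floor. Its signal was 25.9, 28.6 and 34.0 in H4R45H, against 21.8, 21.7 and 18.4 in wild type. It was called higher (log2 difference 0.51, limma adjusted p = 0.0059), below the median of 0.71 for genes of its brightness, and its sign changed with quantile normalization (-0.28, adjusted p = 0.13) and cyclic loess (-0.12, adjusted p = 0.46). MFA1, MFA2, STE6, BAR1 and AGA2 kept their calls in all 15 alternative fits run for them (the 2-fold minimum is not counted among these).

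**Figure D2:**
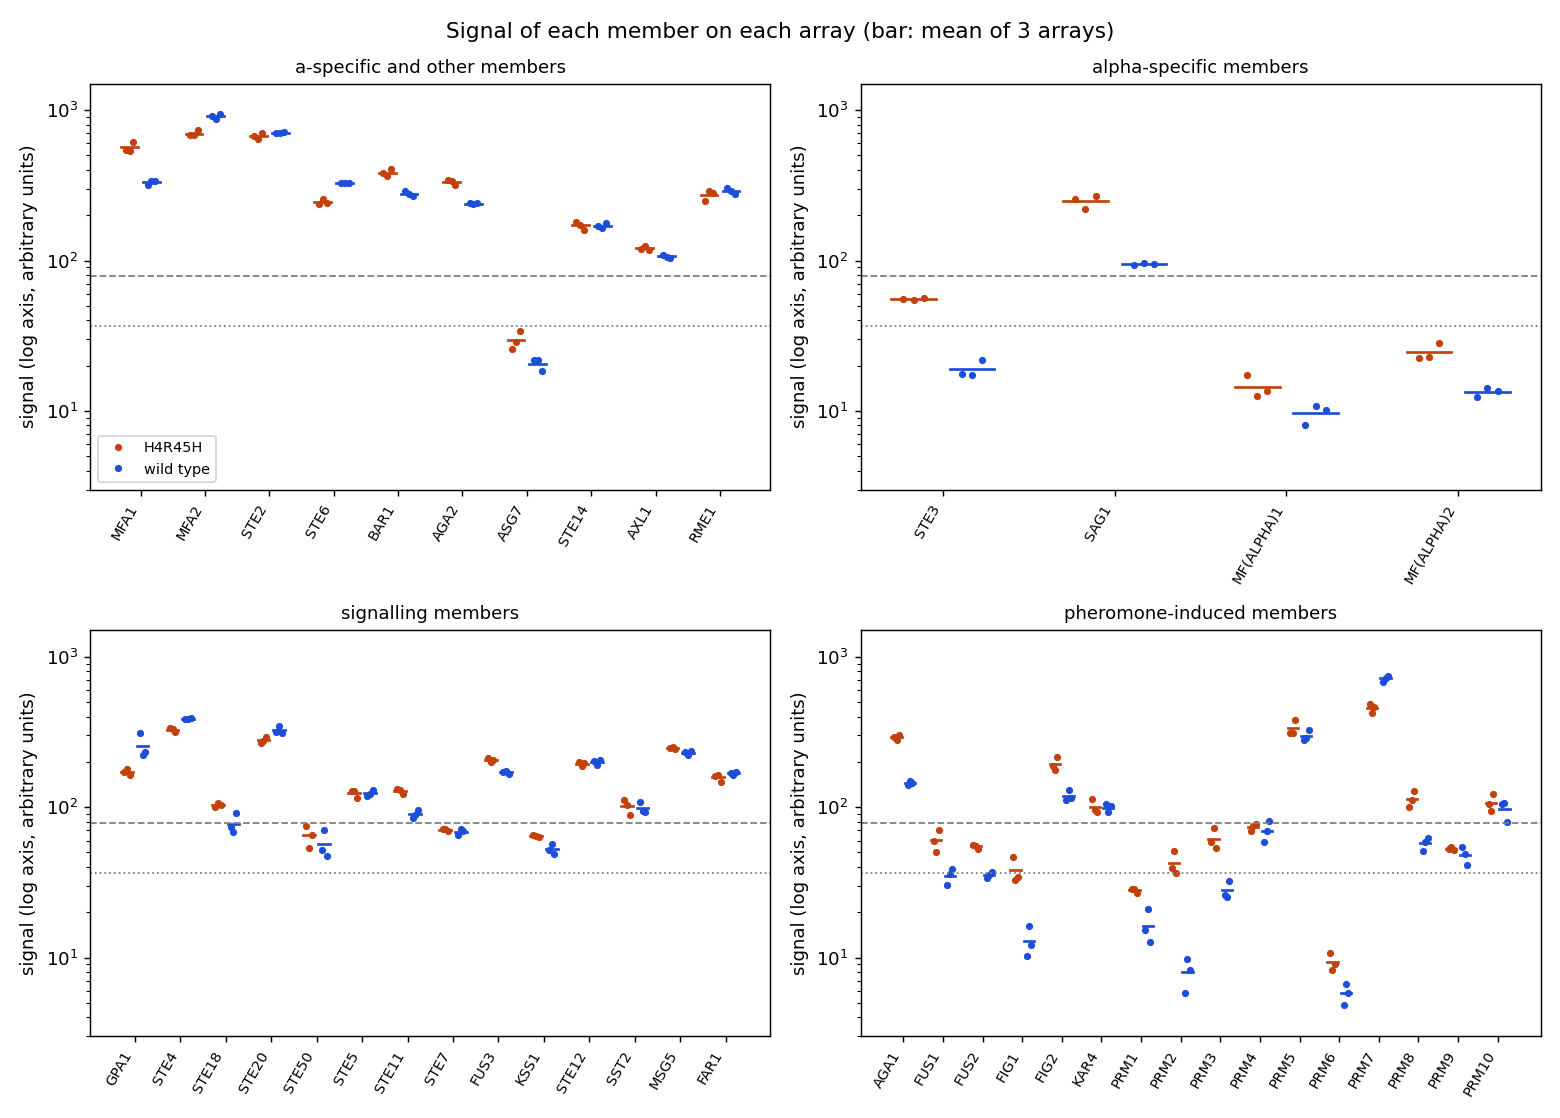
Signal on a log axis for each of the 44 genes, with a point per array and a bar at the mean of 3 arrays, H4R45H in orange and wild type in blue. The dotted line marks the lowest 10% of probe sets (36.5) and the dashed line the lowest 25% (78.3). SAG1 and AGA1 lie above both lines in both strains, SAG1 in wild type (92.7 to 96.5) not far above the dashed one. STE3, FIG1 and PRM2 lie below the dotted line in wild type.

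All 4 alpha-specific genes were higher in H4R45H, with a median log2 difference of 1.13, and STE3 and SAG1 passed the 2-fold minimum. The medians of their signal bins had a median of 0.71. Near the signal floor, where 3 of the 4 lay, 64% of all genes were higher. On all 4 scalings only STE3 and SAG1 of these genes were higher. SAG1 (YJR004C), which encodes alpha-agglutinin, the partner of a-agglutinin on alpha cells, read 255, 218 and 268 in H4R45H, against 92.7, 96.5 and 95.2 in wild type. The lowest H4R45H array was above the highest wild-type array by a wide gap, with means of 247 ± 25.4 in H4R45H and 94.8 ± 1.93 in wild type (SD, n = 3 each). SAG1 was 2.60-fold higher (log2 difference 1.38, SE 0.081, limma adjusted p = 3.0e-07) where genes of its brightness had a median of 0.08, and 1.26 after quantile normalization (adjusted p = 1.7e-06).

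STE3 (YKL178C), the a-factor receptor, was near the signal floor by its mean over the 6 arrays. It read 55.4, 54.9 and 56.1 in H4R45H, against 17.6, 17.3 and 21.7 in wild type. The H4R45H arrays lay close together and well above wild type, at 55.5 ± 0.603 in H4R45H and 18.9 ± 2.46 in wild type (SD, n = 3 each). The difference was 2.96-fold (log2 difference 1.56, SE 0.11, limma adjusted p = 1.0e-06), against a median of 0.71 for genes of its brightness, and was 0.91 after quantile normalization (adjusted p = 2.5e-05) and 0.62 with 50 added to every signal. STE3 kept its call in all 14 alternative fits run for it and SAG1 in all 15.

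The alpha-factor genes MF(ALPHA)1 (YPL187W) and MF(ALPHA)2 (YGL089C) stayed near the floor in both strains. MF(ALPHA)1, the major source of alpha-factor, read 17.3, 12.5 and 13.6 in H4R45H, against 8.0, 10.7 and 10.2 in wild type. MF(ALPHA)2, the minor source, read 22.6, 22.9 and 28.2 in H4R45H, against 12.3, 14.2 and 13.5 in wild type. Neither gene's strains overlapped, and both were called higher (log2 differences 0.58 and 0.88, limma adjusted p = 0.016 and 2.3e-04). These differences are close to the median of 0.71 for genes of that brightness, and after quantile normalization they turned to -0.33 (adjusted p = 0.082) and -0.04 (adjusted p = 0.80). MF(ALPHA)1 also lost its call without H4R45H replicate 1 (log2 difference 0.45, adjusted p = 0.080). In total RNA from a culture, more cells that express a gene and more RNA in each cell cannot be told apart.

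In the signalling pathway, which carries the signal from receptor to nucleus, differences were small. Of 14 genes 4 were higher, 3 were lower and 7 did not pass. That is 28.6% higher and 21.4% lower, both under the shares of all genes (37.1% and 29.1%). The median log2 difference was 0.04, and 0 genes reached 2-fold. GPA1 (YHR005C), the G protein alpha subunit that holds the dimer inactive, was lower. It read 172, 180.5 and 163 in H4R45H, against 311, 222 and 232 in wild type. Wild type replicate 1 was far above the other wild-type arrays, and even without it the H4R45H arrays were lower. GPA1 fell by 0.55 on the log2 scale (SE 0.11, limma adjusted p = 0.0015), and by 0.40 without that array (adjusted p = 0.0016). Genes of its brightness had a median of -0.07.

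On the deposited scale the subunits of the dimer itself moved in opposite directions. STE4 (YOR212W), the beta subunit, read 335, 330.4 and 315 in H4R45H, against 386, 386 and 392 in wild type. STE18 (YJR086W), the gamma subunit, read 100.3, 106 and 104 in H4R45H, against 73.8, 68.0 and 91.1 in wild type. Neither overlapped. STE4 fell by 0.25 on the log2 scale (SE 0.053, limma adjusted p = 0.0020), and STE18 rose by 0.42 (SE 0.10, limma adjusted p = 0.0041), a call that was lost after quantile normalization (0.18, adjusted p = 0.13) and after cyclic loess (0.24, adjusted p = 0.052). Within arrays the deposited log2 ratio of STE18 to STE4 was greater by 0.67 in H4R45H (exact permutation p = 0.10, two-sided, and 0.13 adjusted). That p is the smallest that 3 against 3 allow, and the pair was chosen after its values were seen. A scaling that depends on brightness can move this ratio. Genes of STE18's brightness had a median of 0.17, and those of STE4's had -0.09. STE4 was at -0.23 after quantile normalization and -0.16 after cyclic loess.

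Among the kinases, STE11 (YLR362W), the first kinase of the MAP kinase cascade, differed most. It read 132, 129 and 122 in H4R45H, against 84.6, 88.6 and 95 in wild type. It was 1.43-fold higher with no overlap (log2 difference 0.52, SE 0.073, limma adjusted p = 1.3e-04), and 0.32 after quantile normalization (adjusted p = 0.0021). FUS3 (YBL016W), the MAP kinase of mating, read 212, 200.3 and 206 in H4R45H, against 172, 174 and 167 in wild type, and was 1.21-fold higher (log2 difference 0.27, limma adjusted p = 0.0023). KSS1 (YGR040W), the related MAP kinase that also serves filamentous growth, was dim. It read 64.9, 64.1 and 63.6 in H4R45H, against 51.5, 57.2 and 48.9 in wild type.

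KSS1 was called higher as deposited (log2 difference 0.29, limma adjusted p = 0.011), below the median of 0.39 for its brightness. After quantile normalization it turned to -0.12 (adjusted p = 0.20) and after cyclic loess to -0.05 (adjusted p = 0.65). As deposited, the log2 ratio of FUS3 to KSS1 within an array differed by -0.02 between H4R45H and wild type (exact permutation p = 0.70, two-sided). That small difference holds for the deposited scale only. FUS3 was at 0.22 after quantile normalization and 0.28 after cyclic loess, where KSS1 was below 0. Genes of FUS3's brightness had a median of 0.003. STE20 (YHL007C), the kinase that activates Ste11, read 267, 276 and 291 in H4R45H, against 316, 345 and 309.8 in wild type. It fell by 0.22 on the log2 scale (limma adjusted p = 0.012), a call lost after cyclic loess (adjusted p = 0.096) and without wild type replicate 2 (adjusted p = 0.063).

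The other 7 signalling genes did not pass, and each interval lay within 0.55 of no difference on the log2 scale. STE12 (YHR084W), the transcription factor at the end of the pathway, read 199, 187 and 197 in H4R45H, against 203, 192 and 206 in wild type. The strains overlapped, with a log2 difference of -0.04 and a 95% interval of -0.18 to 0.10 (limma adjusted p = 0.56). The scaffold gene STE5 had a log2 difference of 0.01 (95% interval -0.16 to 0.17), the kinase gene STE7 0.04 (-0.12 to 0.21) and STE50, an adaptor of Ste11, 0.20 (-0.15 to 0.55). STE7 was dim, and turned to -0.29 after quantile normalization and -0.22 after cyclic loess, where it was called lower (adjusted p = 0.0046 and 0.018). STE50 was dim too, and its strains overlapped, with 53.9 to 75.0 in H4R45H and 47.2 to 70.8 in wild type. Without wild type replicate 2, the highest of its strain, it was called higher at 0.37 (adjusted p = 0.038).

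Genes that damp the response or arrest the cell cycle were among those that did not pass. SST2 (YLR452C), which speeds the shutdown of the G protein and is itself induced by pheromone, read 112, 103 and 89.3 in H4R45H, against 109, 94.6 and 92.3 in wild type. MSG5, a phosphatase that acts on Fus3, lay at 244 to 252 in H4R45H and at 221 to 238 in wild type. FAR1, which blocks the cell cycle in response to pheromone, lay at 146 to 164 in H4R45H and at 163 to 171 in wild type. Only the arrays for MSG5 did not overlap. The log2 differences were 0.04 for SST2, 0.10 for MSG5 and -0.09 for FAR1 (limma adjusted p = 0.76, 0.15 and 0.25). FAR1 was called lower after quantile normalization (-0.18, adjusted p = 0.035) and median centring (-0.20, adjusted p = 0.021), and MSG5 higher after cyclic loess (0.15, adjusted p = 0.049).

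**Figure D3:**
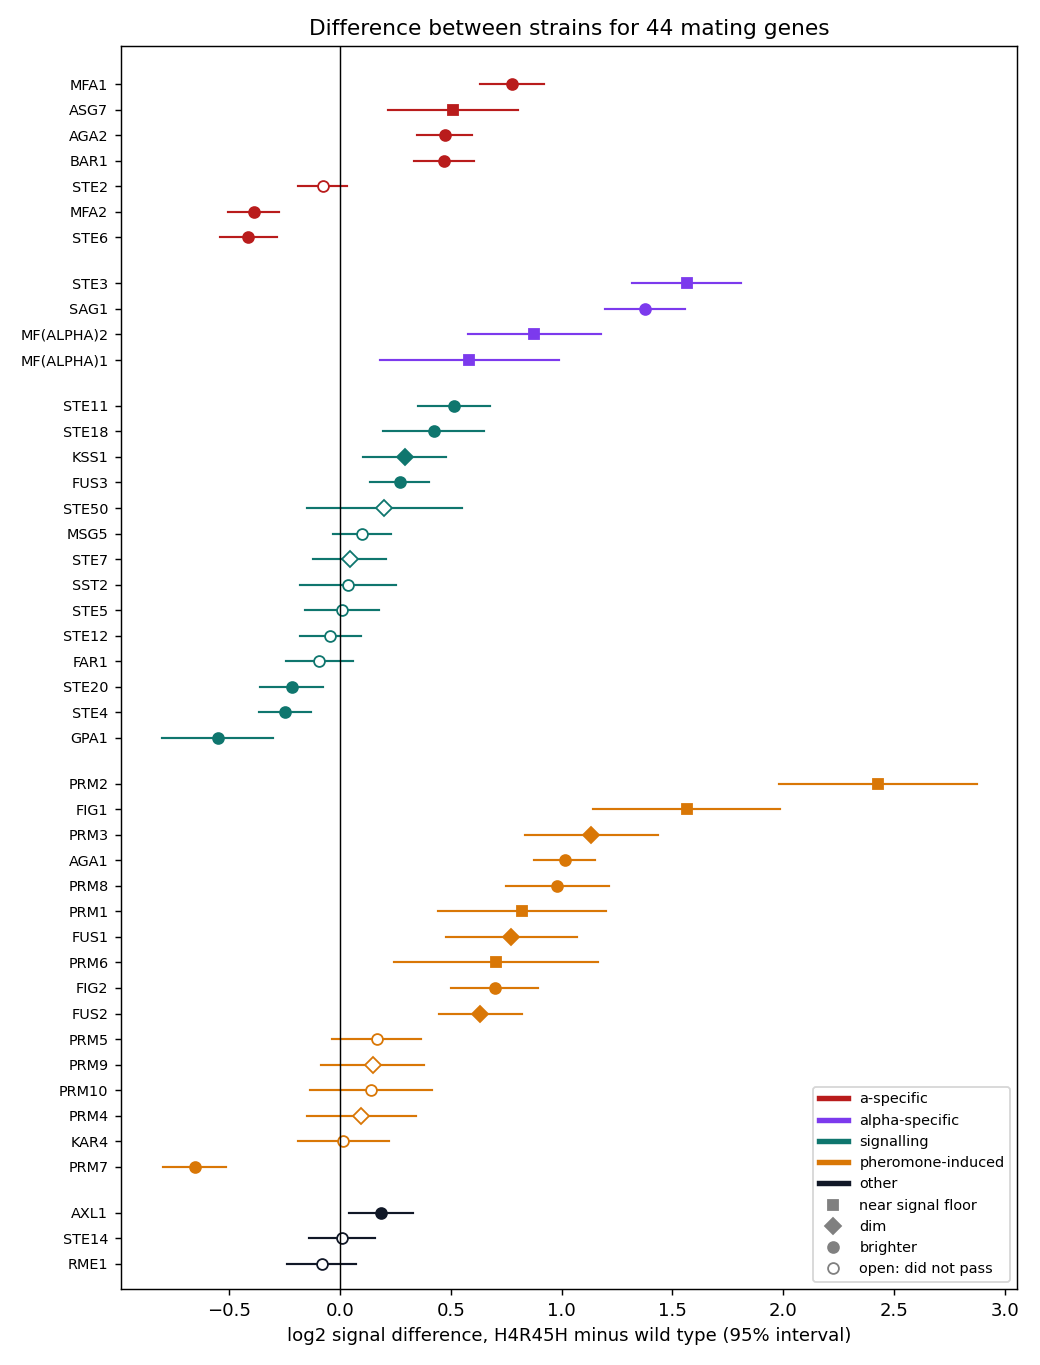
Log2 difference between H4R45H and wild type with its 95% interval for the 44 genes, grouped by role. Squares are near the signal floor, diamonds dim, circles brighter, and open symbols did not pass the test. The alpha-specific genes all lie right of 0, the signalling genes lie between -0.55 and 0.52, and the pheromone-induced genes run from -0.65 (PRM7) to 2.43 (PRM2).

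The pheromone-induced genes, which act in adhesion, fusion and membrane remodelling, were mostly higher. Of 16 genes 10 were higher, 1 was lower and 5 did not pass. That is 62.5% higher and 6.25% lower, beside 37.1% and 29.1% of all genes. Their median log2 difference was 0.70. Of the 16, 9 lay in the lowest 25%, and the medians of the signal bins of all 16 had a median of 0.28. All 4 near the signal floor and 3 of the 5 dim ones were higher, where 59.5% of all genes in the lowest 25% were. Above the lowest 25% there were 7, of which 3 were higher (AGA1, FIG2 and PRM8) and 1, PRM7, was lower. There 29.9% of all genes were higher and 36% lower. Under all 4 scalings 6 of the 16 were higher and 1 lower, beside 22.9% and 22.3% of all genes.

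The adhesion genes were above the lowest 25% in signal. AGA1 (YNR044W), the subunit that anchors a-agglutinin in the cell wall, read 294, 279 and 304 in H4R45H, against 139, 149.6 and 145 in wild type. The lowest H4R45H array was far above the highest wild-type array, with means of 292 ± 12.7 in H4R45H and 145 ± 5.11 in wild type (SD, n = 3 each). AGA1 was 2.02-fold higher (log2 difference 1.01, SE 0.063, limma adjusted p = 4.4e-07), and genes of its brightness had a median of -0.07. The log2 ratio of AGA1 to AGA2 within an array was greater by 0.54 in H4R45H (exact permutation p = 0.10, two-sided, and 0.13 adjusted). That p is again the smallest possible, for a pair chosen after its values were seen. FIG2 (YCR089W), a cell wall adhesin of mating cells, read 188, 178 and 215 in H4R45H, against 112, 130.5 and 115 in wild type. FIG2 was 1.62-fold higher with no overlap (log2 difference 0.70, SE 0.088, limma adjusted p = 5.8e-05), with a median of 0.08 for its brightness.

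FIG1 (YBR040W), a membrane protein for calcium entry and fusion during mating, read 46.8, 32.8 and 34.2 in H4R45H, against 10.2, 16.3 and 12.2 in wild type. The difference was 2.96-fold with no overlap (log2 difference 1.56, SE 0.19, limma adjusted p = 4.4e-05), against a median of 0.71 for genes near the floor, and 0.76 after quantile normalization (adjusted p = 0.0042). FUS1 (YCL027W), a membrane protein of the fusion site, read 59.7, 50.7 and 70.1 in H4R45H, against 30.2, 36.2 and 38.9 in wild type. FUS2 (YMR232W), which also acts in cell fusion, read 56.4, 55.4 and 53.0 in H4R45H, against 33.9, 35.6 and 36.8 in wild type.

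The strains did not overlap for FUS1 or for FUS2, and both were called higher (log2 differences 0.77 and 0.63, limma adjusted p = 5.0e-04 and 8.4e-05). The median for their brightness was 0.39. After quantile normalization neither call remained (0.25 for FUS1, adjusted p = 0.13, and 0.10 for FUS2, adjusted p = 0.29). PRM1 (YNL279W), which acts at plasma membrane fusion, read 28.7, 28.5 and 27.0 in H4R45H, against 15.2, 20.9 and 12.6 in wild type. It was called higher as deposited (log2 difference 0.82, limma adjusted p = 0.0016), close to the median of 0.71 for its brightness, and was at -0.02 after quantile normalization (adjusted p = 0.91).

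The PRM genes, named as pheromone-regulated membrane proteins, moved in both directions. PRM2 (YIL037C) read 39.3, 51.1 and 36.6 in H4R45H, against 5.80, 9.80 and 8.30 in wild type. No wild-type array came near the H4R45H arrays. PRM2 was 5.38-fold higher (log2 difference 2.43, SE 0.20, limma adjusted p = 3.0e-06), against a median of 0.71 for genes of its brightness. Since its wild-type signals are near the floor, the size depends on the scale, with a log2 difference of 1.67 after quantile normalization (adjusted p = 5.7e-05) and 0.67 with 50 added to every signal. PRM3 (YPL192C), a protein of the nuclear envelope that serves nuclear fusion, was dim. It read 59.0, 72.6 and 53.1 in H4R45H, against 26.2, 25.4 and 32.3 in wild type, and was 2.19-fold higher (log2 difference 1.13, SE 0.13, limma adjusted p = 3.7e-05). Genes of its brightness had a median of 0.39, and PRM3 was at 0.58 after quantile normalization (adjusted p = 0.0048).

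PRM8 (YGL053W) read 101, 112 and 128 in H4R45H, against 51.3, 58.7 and 62.3 in wild type. All H4R45H arrays were higher, by 1.97-fold on average (log2 difference 0.98, SE 0.10, limma adjusted p = 1.8e-05), with a median of 0.17 for its brightness. PRM8 belongs to the DUP240 family of similar membrane proteins, as do PRM9, MST27 and MST28, and cross-hybridization between them was not tested. MST27, next to PRM8 on the chromosome, was higher as well (log2 difference 0.97, adjusted p = 7.9e-06), and MST28 by 0.37 (adjusted p = 0.0039). MST27 lay near the signal floor, with a median of 0.71 for its brightness. MST28 was dim, and its probe set is not specific to 1 transcript. Both were looked at after their values were seen. PRM9 (YAR031W) did not pass, at 52.2 to 54.4 in H4R45H and 41.3 to 54.3 in wild type (log2 difference 0.15, 95% interval -0.09 to 0.38), and was called lower after quantile normalization (-0.34, adjusted p = 0.021).

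PRM7 (YDL039C) was the 1 lower gene among those listed here as pheromone-induced. Its brighter probe set read 484, 421 and 465 in H4R45H, against 680.0, 726 and 746 in wild type. Its other probe set read 314, 263 and 292 in H4R45H, against 462, 488 and 504 in wild type. Both probe sets were lower on every H4R45H array, with log2 differences of -0.65 and -0.75 (limma adjusted p = 9.9e-06 and 9.0e-06). Genes as bright as the first had a median of -0.11. The genes on both sides of PRM7 in the RefSeq gene order were lower too, BSC1 with a log2 difference of -0.68 (adjusted p = 4.3e-04) and NAT1 with -0.35 (adjusted p = 3.0e-04).

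PRM6 (YML047C) lay deepest on the floor, at 10.7, 8.30 and 9.10 in H4R45H, against 4.80, 6.70 and 5.80 in wild type. It was called higher (log2 difference 0.71, limma adjusted p = 0.012), equal to the median of 0.71 for its brightness, and lost the call without H4R45H replicate 1 (0.61, adjusted p = 0.062). After quantile normalization it was at -0.04 (adjusted p = 0.87). The genes left in the pheromone-induced list did not pass and their strains overlapped. KAR4 (YCL055W), a transcription factor for nuclear fusion genes, read 114, 95.3 and 93.0 in H4R45H, against 105, 92.3 and 101 in wild type (log2 difference 0.02, 95% interval -0.19 to 0.22). PRM4, PRM5 and PRM10 had log2 differences of 0.10, 0.17 and 0.14 (limma adjusted p = 0.46, 0.13 and 0.34).

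**Figure D4:**
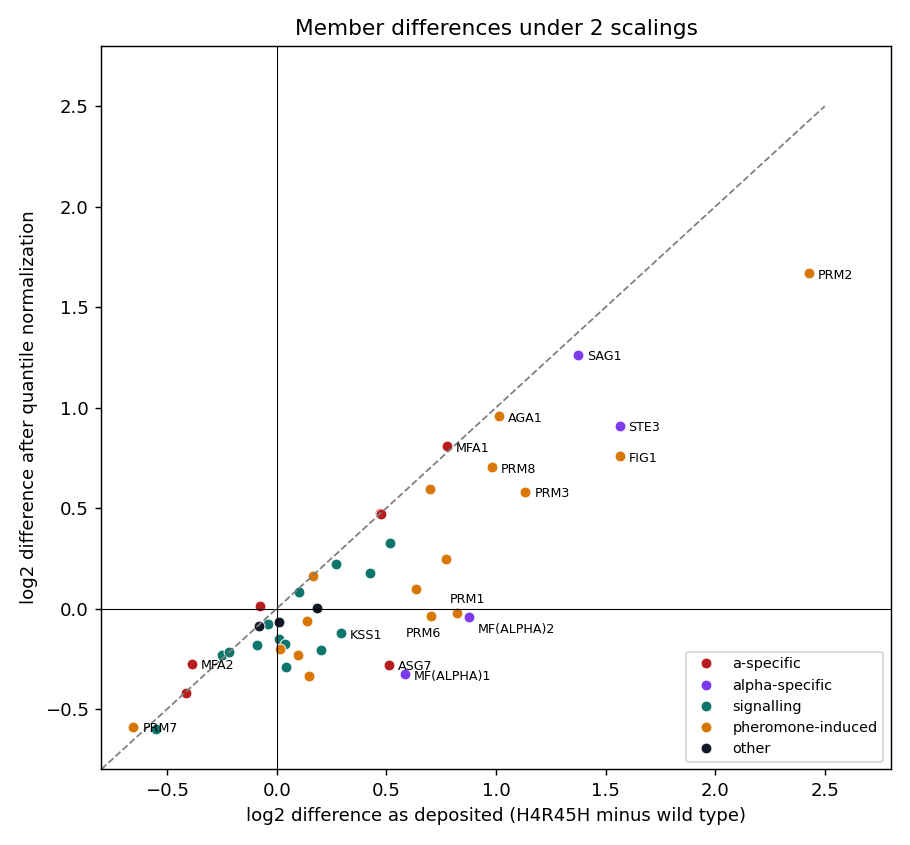
Log2 difference of the 44 genes after quantile normalization against the difference on the deposited scale, with equality as a dashed line. SAG1, AGA1 and MFA1 lie near the line, PRM2, STE3, FIG1 and PRM3 lie below it but above 0, and of the genes called higher as deposited, ASG7, MF(ALPHA)1, MF(ALPHA)2, KSS1, PRM1 and PRM6 fall below 0.

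Of the remaining genes, those of a-factor processing and haploid identity, 1 of 3 was called. AXL1 (YPR122W), a protease that trims the a-factor precursor, read 119.6, 125 and 118 in H4R45H, against 108, 106 and 105 in wild type. The arrays did not overlap, but the difference was small (log2 difference 0.18, limma adjusted p = 0.028) and the call held in 8 of 15 alternative fits. It was lost under the other 3 scalings, with the replicate block, and without H4R45H replicate 2, wild type replicate 2 or wild type replicate 3 (adjusted p = 0.11, 0.077 and 0.060). STE14, which methylates a-factor, lay at 160.0 to 179 in H4R45H and 164 to 176 in wild type (log2 difference 0.01, 95% interval -0.14 to 0.16). RME1, a repressor of meiosis expressed in haploid cells, lay at 250.3 to 291 in H4R45H and 277 to 302 in wild type (log2 difference -0.08, 95% interval -0.24 to 0.07), and was called lower after median centring (-0.19, adjusted p = 0.049). Both genes overlapped between strains.

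By place on the chromosomes, PRM9 was the 1 member among the 10 outermost open reading frames of a chromosome arm, and 5 members (STE6, SST2, FIG2, KAR4 and PRM9) were among the 20 outermost. The 23 higher members had 46 measured neighbours in the RefSeq gene order, of which 14 were called higher (30.4%), where 40.1% of the neighbours of all higher genes and 36.9% of those of all genes were. Among the 6 members higher by 2-fold, FIG1 and AGA1 each had 1 higher neighbour, ATP3 (log2 difference 0.23, adjusted p = 0.0012) and MVD1 (0.39, adjusted p = 4.2e-04). SAG1, PRM2 and AGA1 each had 1 lower neighbour, MRX12 (-0.55), NOT3 (-0.19) and PET494 (-0.27). The neighbours of STE3 and PRM3 did not pass.

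Other genes of the pathway, listed by textbook role but with earlier results of these data known, went both ways. Of 44 listed 40 were measured, and 8 were higher (20%), 10 lower (25%) and 22 did not pass, beside 37.1% higher and 29.1% lower over all genes. Among 8 genes of pheromone maturation, STE13, a peptidase for alpha-factor, was higher (log2 difference 0.59, limma adjusted p = 6.9e-05) and KEX2, the protease that first cuts its precursor, was lower (-0.38, adjusted p = 5.7e-04). The other 6 of these did not pass. Among 12 regulators of the pathway 4 were higher and 2 lower. PTP2, a tyrosine phosphatase of MAP kinases, read 480.3, 449.5 and 508 in H4R45H, against 241, 262 and 246 in wild type. It was 1.92-fold higher (limma adjusted p = 8.4e-07). DIG2, an inhibitor of Ste12, was higher by 0.58 on the log2 scale from dim signals, and AFR1, which regulates the receptor, by 0.48. AKR1, a palmitoyl transferase, fell by 0.36 on the log2 scale.

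Among 10 genes of polarity, fusion and karyogamy 1 was higher, KAR5 (log2 difference 0.55), and 3 were lower, SPA2 (-0.53), BIM1 (-0.32) and CIK1 (-0.22). KAR5 and CIK1 were dim, with a median of 0.39 for their brightness. Among 10 measured genes of mating type and silencing 2 were higher and 4 lower. HO, the endonuclease of mating-type switching, read 93.7, 91.3 and 54.6 in H4R45H, against 169.9, 164 and 145 in wild type. It fell by 1.04 on the log2 scale with no overlap (SE 0.18, limma adjusted p = 4.3e-04). SIR2, the deacetylase that silences the mating-type copies, fell by 0.48 (adjusted p = 8.2e-05), TUP1 by 0.20 and CYC8 by 0.15, the last 2 being the corepressor that acts on a-specific genes in alpha cells. SIR1 was higher by 0.22 from dim signals (adjusted p = 0.029), below the median of 0.39 for its brightness, and SIR3 and SIR4 did not pass. HMRA1, whose sequence the a mating-type locus also carries, lay at 161 to 194 in H4R45H and 138 to 194 in wild type and did not pass. HMRA2, whose probe set is not specific to 1 transcript, was higher by 0.33 (adjusted p = 0.0068).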

How the data were processed

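Total RNA of 3 H4R45H and 3 wild-type arrays was compared. The authors deposited a linear intensity, the signal, for each probe set, and MAS5 is the tool in the submitters' processing notes. Its version, scaling target and detection calls are not given in the sources used here. Of 5716 probe sets 5498 had 1 gene in the platform annotation, whose older symbols were replaced from the RefSeq gene table (R64). No member's probe set has a name that marks it as shared by several transcripts. Promoter motifs and sequences were not analysed here, and no coordinates are printed.

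Signals were taken as log2, with 7 values at 0 set to 0.1. limma 3.58.1 (R 4.3.3; lmFit, eBayes with trend) fitted the strain difference over all 5716 probe sets, two-sided, with Benjamini-Hochberg adjustment, and calls were made at 0.05 after adjustment. Higher, lower, rose and fell are used of called genes. Folds come from the fitted log2 difference, intervals are 95%, and the 10 signal bins are by mean log2 signal over the 6 arrays. The fit was also run on simulated data with independent noise and no strain shift tied to brightness. That run does not bear on the brightness trend described above. The members and lists were chosen with earlier results of these data known. Every member is named, and in each other list up to 4 called genes by size of difference, plus all measured genes of mating type and silencing. Same-numbered arrays of the strains did not deviate together (correlations -0.034 to 0.027), so the numbers were not taken to pair them.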

Additional observations from a re-analysis of the deposited data

How the results depend on the processing

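Of the 23 higher members 13 kept their call under all alternatives run for them other than the minimum of 2-fold, as did 5 of the 6 lower ones, and 7 of the 15 others remained uncalled. After quantile normalization 13 members were higher, with 2 alpha-specific, 2 signalling (5 lower), 6 pheromone-induced (2 lower) and 0 of the 3 other genes, and 5 other pathway genes were higher. The log2 difference turned to -0.28 for ASG7, -0.33 for MF(ALPHA)1, -0.041 for MF(ALPHA)2, -0.29 for STE7, -0.12 for KSS1, -0.025 for PRM1, -0.036 for PRM6 and -0.34 for PRM9. After cyclic loess 15 members were higher, with 2 alpha-specific and 0 of the 3 other genes, and 5 other pathway genes were higher. There ASG7 turned to -0.12, MF(ALPHA)1 to -0.18, STE7 to -0.22, KSS1 to -0.047 and PRM6 to -0.15. After median centring 0 of the 3 other genes were higher and 1 lower, and 18 other pathway genes were lower. The cause was not tested for these scalings. Without the dimmest 25% of probe sets, fewer genes were tested, and 11 members, 1 alpha-specific, 3 pheromone-induced and 5 other pathway genes were higher. With a minimum of 2-fold, 6 members were higher and 0 lower, with 0 and 0 a-specific, 2 alpha-specific, 0 and 0 signalling, 4 and 0 pheromone-induced, and 0 of the 3 other genes higher, while 0 other pathway genes were higher and 1 lower. With the replicate block AXL1 lost its call, leaving 0 of the 3 other genes, and PRM5 gained one (adjusted p = 0.044). Leaving out 1 array at a time gave 0 to 1 of the 3 other genes higher and 6 to 10 other pathway genes lower, 6 without H4R45H replicate 2. Of all genes tested, 26.9% were higher and 36.8% lower after quantile normalization. These shares were 30.7% and 30.35% after cyclic loess, and 30.3% and 38.6% after median centring. Without the dimmest 25% they were 29.9% and 35.9%, and with a minimum of 2-fold 8.88% and 0.385%. With the replicate block they were 35.9% and 28.0%. Leaving out 1 array at a time gave 33.8% to 36.6% higher and 25.7% to 28.5% lower. Over all genes, the called genes that were higher made up 56.1% as deposited, 42.2% after quantile normalization, 44% after median centring, 50.3% after cyclic loess and 45.5% without the dimmest 25%.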
